A study of Canis lupus familiaris with 60 samples.

Results

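Skin of nonsensitized Beagle dogs was compared between the site of a house dust mite patch 24 hr after its application and untreated skin of the same animals. The members of this comparison were chosen by their labels: 6 arrays of 24 hr allergen sites and 6 arrays of untreated 0 hr skin, paired by the animal number, which makes 12 of the 60 arrays of the series. Gene expression was measured with one-colour Agilent canine arrays, 1 array for each biopsy, and 5 biopsies were taken from every dog, 1 of untreated skin at 0 hr and 4 of allergen and saline sites at 6 hr and 24 hr.

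The 6 dogs, 2 males and 4 females of 2 to 3 years, had not been sensitized to the mite. Before any biopsy the lateral chest was clipped, 4 days ahead of the patch test. The allergen site received 75 mg of a paste of *Dermatophagoides farinae* and saline, the saline site received 50 µl of saline, and both were held under bandages that were replaced at 6 hr. Biopsies were 8-mm punches taken after 0.5 ml of 2% lidocaine. The 0 hr skin was not patched or bandaged, and no biopsy preceded it. By 24 hr each dog had been biopsied at 0 hr and each treatment area at 6 hr. A difference between 24 hr allergen and untreated skin thus cannot be told apart from one of time, bandage, patch or earlier biopsy. The saline sites of the same dogs share those features and are given beside it. As a second reference, 5 sensitized dogs with both arrays were used (the sixth, whose 24 hr allergen array the study left out, did not enter). Sensitized dogs were mostly males, unlike the nonsensitized dogs. They had earlier received repeated mite applications to the skin and challenges. A difference between these groups of dogs thus cannot be told apart from one of sex or earlier treatment.

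A patch test brings an allergen onto the skin for a day, and in a sensitized animal the dendritic cells, mast cells and T cells of the skin answer it with cytokines such as IL13 and with chemokines, small secreted proteins that draw leukocytes out of the blood. CCL2, CCL7, CCL8 and CCL13 attract monocytes, CCL17 attracts T helper 2 cells through CCR4, and CCL19 guides dendritic and T cells through CCR7. In a dog that is not sensitized the same patch still wets, covers and touches the skin, and what is measured there is the answer of skin that lacks a learned response to the mite.

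Untreated and 24 hr allergen arrays shared no glass slide. The untreated arrays were on slide 7 (5 arrays) and slide 8 (1 array, dog 2847) and were all scanned on day 3. The 24 hr allergen arrays were on slide 1 (dogs 2716, 2800, 2845 and 2847) and slide 2 (dog 2704), scanned on day 1, and on slide 3 (dog 2802), scanned on day 2. The saline arrays stood on the same slides 1 to 3, on that of the allergen site in 5 of the 6 dogs. The median signal of an array was 87.2 to 101.18 for untreated skin and 116.73 to 136.99 for the allergen sites, before the arrays were scaled, and the share of spots well above background was 72.22% to 78.26% against 68.85% to 77.59%. Probes for keratinocyte markers, among them *KRT1* and *DSG3*, were above background on all 12 arrays. 

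Of 44372 probes tested, 2680 (6.04%) were higher and 5378 (12.1%) lower at the 24 hr allergen site, at an adjusted p below 0.05 (limma, Benjamini-Hochberg) and a change of at least 1.5-fold. Values below are normalized log2 signals, and a difference of 1 on this scale is a doubling. The median difference over all tested probes was 0.04. Of the probes that were higher, 2384 were so in 6 of 6 dogs, and in 1291 the groups did not overlap, while 3549 of all tested probes had every allergen array above every untreated array. Of the probes that were lower, 5160 were so in 6 of 6 dogs and 3633 did not overlap, against 5430 of all tested probes. Probes that carried a gene name made up 1918 of those tested, and of these 14.4% were higher and 7.82% lower. Read from the brightest probe of each, 157 of 1236 named genes rose and 120 fell. The names came from 2 sources. Among 864 genes named through RefSeq 92 rose and 117 fell. Among 372 genes named through a list that the study had chosen on arrays of this series 65 rose and 3 fell, and that split is not independent of the choice.

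The slides moved with these calls. In one fit over 59 arrays with the slide as a fixed block, which ties untreated to 24 hr arrays only through other groups that span slides, 660 probes (1.49%) were higher and 310 (0.699%) lower. That fit did not pair arrays by dog. The same unpaired fit without the slide gave 2525 and 5184. Of the 2680 and 5378 probes above, 22 and 6 were called again in the same direction with the slide as the block, and 51.3% and 70.1% kept their sign. The median standard error of the difference was 0.37 and 0.29 in that fit for these probes, against 0.11 in the paired fit, so the smaller number of calls goes with wider errors as well as with smaller differences. Of the 90 genes described here by name that rose or fell, 0 were called with the slide as a fixed block, and 19 turned sign. With the scan day as the fixed block in place of the slide, a fit added after seeing the data, 5 probes were higher and 1 lower.

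Slides could be compared directly only inside groups, between different dogs. Among the sensitized 24 hr allergen arrays, the 1 array on slide 8 stood a median of 0.53 below the 4 on slides 2 and 3 over the probes that were higher here, and 0.42 above them over the probes that were lower, against 0.01 over all tested probes. Over the probes that were higher, the gap was smaller in the other two groups with such a split, -0.10 at 6 hr in nonsensitized dogs and -0.14 in sensitized untreated skin. Among sensitized untreated arrays, the 5 on slides 7 and 8 were 0.56 above the 1 on slide 6 over the probes that were lower, and 95.9% of these probes had that direction. Within the nonsensitized 24 hr allergen arrays the dog on slide 3, scanned on another day, had a median fall of -0.45 where the other 5 dogs had -0.91 to -1.05. Its median rise was 0.48 against 0.69 to 0.93. What part the slide had in the differences from untreated skin was not tested, because no slide held both groups.

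**Figure D1:**
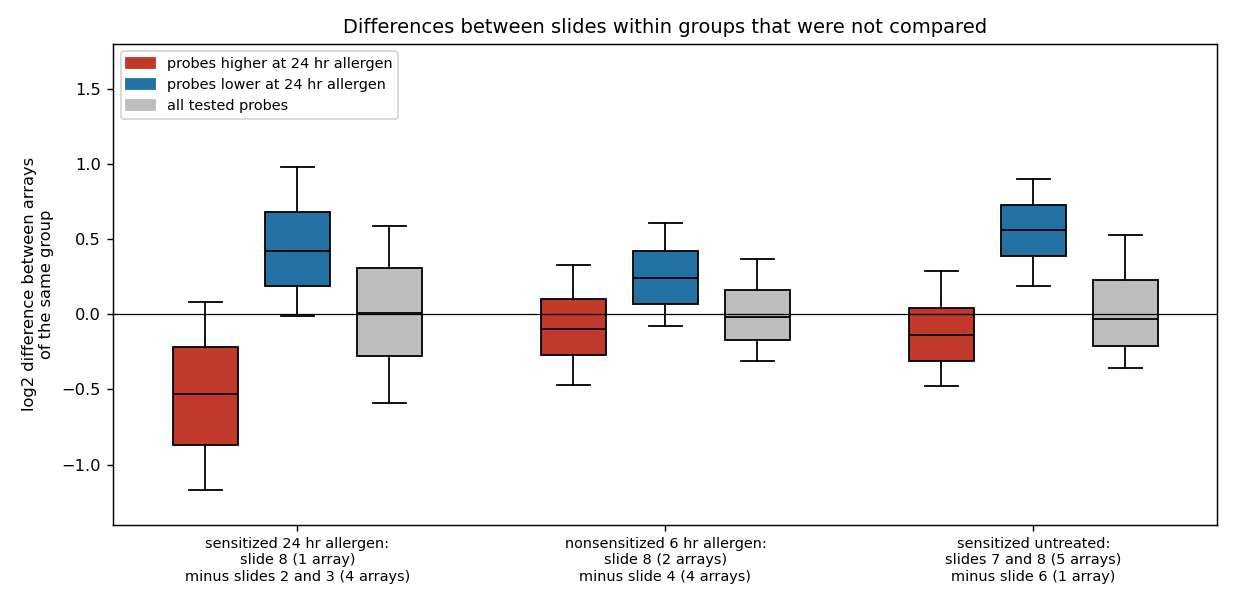
Differences between arrays of one group that lay on different slides (log2 scale), for the probes higher (red) or lower (blue) at the 24 hr allergen site of nonsensitized dogs and for all tested probes (grey). Boxes span the 25th to 75th percentile with the median as a line and whiskers reach the 10th and 90th percentile. In all 3 groups the probes that were lower stand above 0 on the slides that also held untreated arrays of nonsensitized dogs (medians 0.42, 0.24 and 0.56).

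The saline sites, on the same slides as the allergen sites, had nearly the same differences from untreated skin. The probes that were higher at the allergen site had a median of 0.72 there and of 0.81 at the saline site. Those that were lower had -0.86 and -0.91. At 6 hr the allergen sites of the same dogs, on slides 4 and 8, gave 0.28 and -0.28, and the 24 hr allergen sites of sensitized dogs 0.60 and -0.51. Over all probes 9.86% were called higher and 13.7% lower than untreated skin at the saline site, 1.08% and 1.44% at the 6 hr allergen site, and 7.72% and 6.93% at the 24 hr allergen site of sensitized dogs. The saline and 6 hr differences share the untreated arrays with the allergen difference, and untreated arrays of sensitized dogs lay mostly on the same slides 7 and 8, so their likeness is not a separate result. Of the probes that were lower, 99.3% were within 1.5-fold of the saline site, and of those that were higher 92%, against 97.9% of all tested probes.

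The 4 largest rises among named genes were those of chemokines. Of 17 measured chemokines for monocytes and T cells, 11 rose and 1 fell at the 24 hr allergen site, and their median was 0.95. Over all probes 6.04% rose and 12.1% fell, and over probes with a gene name 14.4% and 7.82%. The list counts against untreated skin that follow are to be read beside these shares. The saline site gave a median of 1.00 over the same 17 genes and the sensitized allergen site 1.36. With the slide as a fixed block the median was 0.99, with 0 genes called, and at 6 hr it was 0.95.

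*CCL2*, the main attractant of monocytes, had a normalized log2 signal of 9.86 to 11.42 in untreated skin (median 9.94) and of 11.58 to 12.36 at the allergen site (median 12.08). At the saline site it was 13.55 to 14.75 (median 14.30). The 3 sets of arrays did not overlap, and the order untreated, allergen, saline held in each of the 6 dogs. The rise at the allergen site was 1.83 (SE 0.17, adjusted p = 9.87e-05, limma), and 2.48 (SE 1.03) with the slide as a fixed block. Dog 2847 had the highest untreated value, 11.42, on the one untreated array of slide 8, and the smallest rise, 0.91, where the others rose by 1.70 to 2.37.

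*CCL19* was 7.55 to 8.69 in untreated skin (median 8.11), 9.33 to 10.59 at the allergen site (median 9.94) and 10.87 to 12.27 at the saline site (median 11.35). Again the sets did not overlap. Its rise of 1.88 (SE 0.11, adjusted p = 7.48e-05) was 1.44 or more in each dog, and it was 2.15 (SE 0.73) with the slide as a fixed block.

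*CCL17* varied between dogs. It was 6.31 to 7.87 in untreated skin and 7.59 to 10.67 at the allergen site, with differences of 1.84 to 3.06 in 4 dogs and of 0.05 and 0.76 in the other two. The saline site had a like spread, 7.59 to 10.57, and the difference between the sites was 0.18 (SE 0.36, adjusted p = 0.823). The mean rise from untreated skin was 1.86 (SE 0.37, adjusted p = 0.00275), and 0.48 (SE 1.5) with the slide as a fixed block.

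The probe named for the *CCL14-CCL15* locus, a human name carried over by the study's annotation, had the largest rise of any named gene, 2.48 (SE 0.41, adjusted p = 0.00103). Its signal was 7.45 to 8.15 in untreated skin and 9.31 to 12.26 at the allergen site. Rises ran from 1.26 in dog 2802 to 4.81 in dog 2845, whose allergen value of 12.26 equalled the highest saline value.

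Among the other attractants, chosen for mention after their values were seen, *CCL13* rose by 0.98, *CCL7* by 0.96, *CCL4* by 1.02 and *CCL5* by 1.04. *CXCL10*, an interferon-induced attractant of T cells, rose by 0.65. *CCL8*, a monocyte attractant close to CCL2, rose by 1.04 (SE 0.13, adjusted p = 0.000297) from a range of 6.81 to 8.14 to one of 7.85 to 8.54. Of its 2 probes the dimmer one differed by -0.77, so the 2 did not move together. With the slide as a fixed block *CCL4* (-0.09) and *CCL5* (-0.45) turned sign. The one chemokine that fell was *CCL25*, which guides T cells to the gut, at -1.12 (SE 0.10), a value that was 0.32 with the slide as a fixed block.

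**Figure D2:**
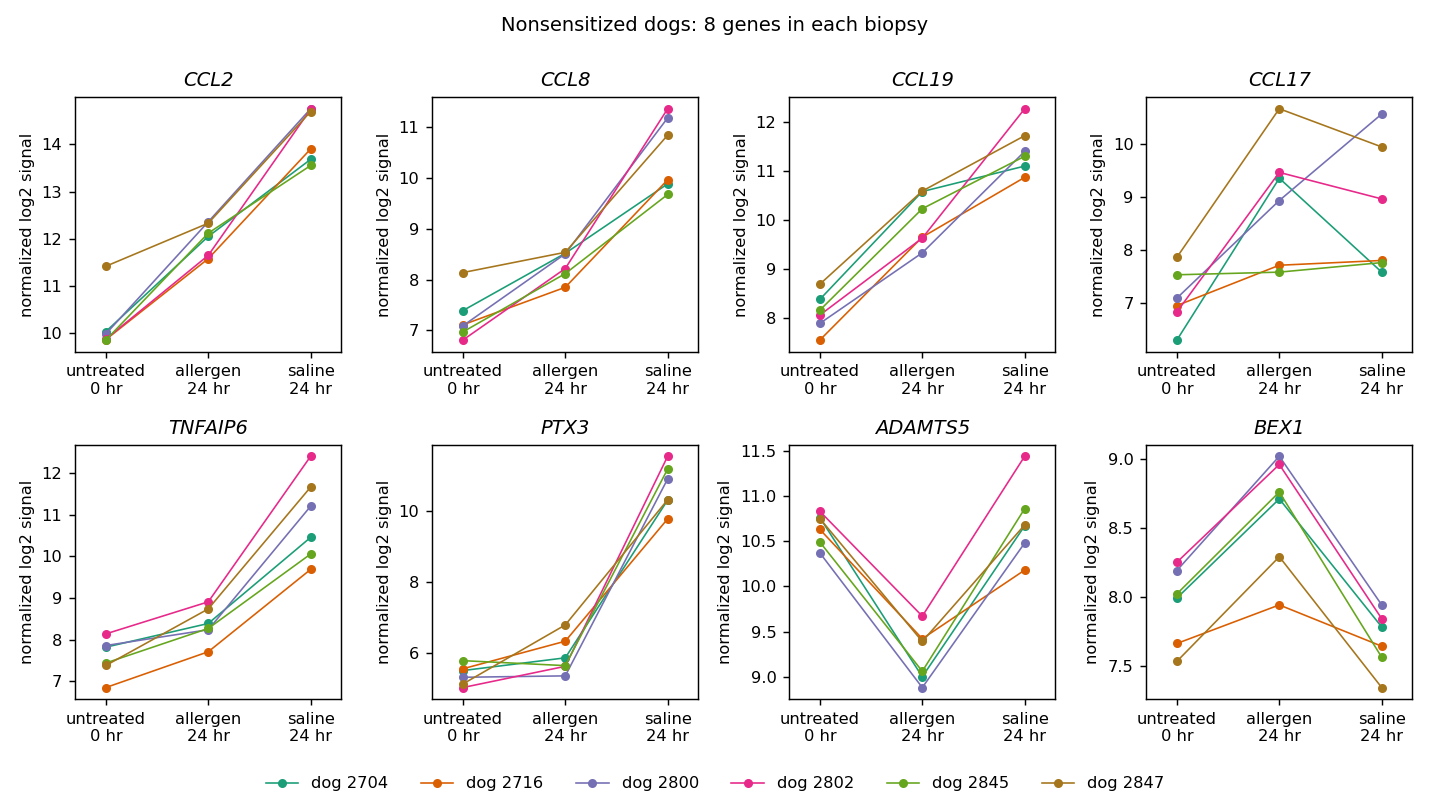
Normalized log2 signal of 8 genes in the biopsies of the 6 nonsensitized dogs, with 1 line for each dog from untreated skin at 0 hr to the allergen and saline sites at 24 hr. *CCL2*, *CCL8*, *TNFAIP6* and *PTX3* are highest at the saline site in 6 of 6 dogs, *ADAMTS5* is lowest and *BEX1* highest at the allergen site in 6 of 6.

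Of 6 measured neutrophil chemokines and granulocyte factors, 3 rose and 0 fell (median 0.68, saline 1.23). *S100A8*, a calcium-binding protein of neutrophils and stressed keratinocytes, was 11.35 to 15.30 in untreated skin and 13.53 to 16.45 at the allergen site. It rose by 1.92 to 2.40 in 5 dogs and was 0.42 lower in dog 2847, whose untreated value was the highest of the 6. *CXCL8*, the classic neutrophil attractant, rose by 1.32 (SE 0.50, adjusted p = 0.048), was above background on 3 of 6 untreated and 6 of 6 allergen arrays, and had 2 further probes, the lowest at 0.29. *CSF2*, a growth factor of granulocytes and macrophages, rose by 1.05 and was above background on 2 of 6 untreated arrays. *CXCL8* and *CSF2* entered the test through their allergen arrays alone, so their calls as rises are not independent of that filter. *CXCR2*, the receptor that marks circulating neutrophils, differed by 0.02 (adjusted p = 0.865), and *CXCL1* by 0.30 without reaching 1.5-fold.

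Among 22 cytokines and cytokine receptors, 7 rose and 4 fell (14.4% and 7.82% of probes with a gene name). The median was 0.07 against 0.45 at the saline site and 0.71 in sensitized dogs. *IL13*, the T helper 2 cytokine of allergic skin, was not well above background on any untreated array and was so on 5 of 6 allergen arrays. Its measured means were 4.01 and 5.27, which bounds the rise at at least 1.66-fold (fitted difference 1.26). *IL13* entered the test through its allergen arrays alone, so its call as a rise is not independent of that filter. The saline site differed from untreated skin by 1.78, and with the slide as a fixed block the allergen difference was 0.11 (SE 0.95). *IL13RA2*, a decoy receptor that binds IL13, was 5.40 to 5.87 in untreated skin (median 5.79) and 6.25 to 8.00 at the allergen site (median 7.20). The 2 sets did not overlap, the rise was 1.48 (SE 0.19), and all 3 of its probes rose, by 1.21 to 1.48. At the saline site *IL13RA2* rose by 2.67, and the allergen site was called lower than saline (-1.20, adjusted p = 0.049, limma). At 6 hr the same gene differed by 0.22.

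*IL33*, an alarmin released by damaged epithelial cells, rose by 0.74 (SE 0.14) at the allergen site and by 2.52 at the saline site. *TNFSF9*, a costimulator of T cells, rose by 1.04, and by 1.83 at the saline site. Its allergen site was called lower than saline (-0.79, adjusted p = 0.0454, limma). *IL1RN* and *IL1A*, the antagonist and one agonist of the IL1 receptor, rose by 0.64 and 0.62. *IL31*, the itch cytokine of atopic dermatitis, fell by 0.64, and was above background on 6 of 6 untreated but 1 of 6 allergen arrays. It entered the test through its untreated arrays alone, so its call is not independent of that filter. *IL17A* fell by 0.74 and *LIFR* by 0.78. These 3 differences were alike at the saline site (-0.49, -0.79 and -0.90). *IL33*, *IL1RN*, *IL1A*, *IL31* and *IL17A* were chosen for mention after their values were seen.

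Markers of macrophages were higher at the patch sites. Of 9 measured markers 8 rose at the allergen site and 0 fell, and their median was 0.96 against 1.79 at the saline site, 1.74 in sensitized dogs and 0.28 with the slide as a fixed block. *AIF1*, a cytoplasmic protein of macrophages, was 8.88 to 10.25 in untreated and 10.32 to 11.30 in allergen-treated skin, so that the groups did not overlap. It rose by 1.25 (SE 0.21) with both of its probes. *MRC1*, the mannose receptor, rose by 1.13 (SE 0.14) and *CD163*, the haemoglobin scavenger receptor, by 0.97 (SE 0.24), the latter in 5 of 6 dogs. *FCGR1A*, the high affinity receptor for IgG, rose by 1.31 (SE 0.25) from 6.11 to 7.91 in untreated skin to 7.26 to 8.66. In dog 2847 that rise was 0.26. *CD33*, an inhibitory lectin of myeloid cells, rose by 1.5 (SE 0.24). In biopsies of whole skin, more cells of a type and more RNA for each cell cannot be told apart.

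Of 6 markers of dendritic and Langerhans cells 4 rose (median 0.60), and 2 without dog 2716. *DLA-DQA1* and *DLA-DRA*, chains of the class II molecules that present antigen, rose by 1.12 (SE 0.11) and 0.59 (SE 0.14). *BATF3*, a transcription factor of one dendritic cell lineage, rose by 0.84 and *CD80*, a costimulatory ligand, by 0.62. With the slide as a fixed block *DLA-DQA1* was -0.20 and *CD80* -0.02.

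Mast cell markers gave 2 rises among 5, 1 without dog 2716 and 0 without dog 2704 or dog 2845, where both fell short of 1.5-fold. *MS4A2*, the beta chain of the IgE receptor, rose by 0.63 (SE 0.11) and *CMA1*, mast cell chymase, by 0.59 (SE 0.13). *KIT*, the stem cell factor receptor, which melanocytes also carry, differed by -0.53 and did not reach 1.5-fold.

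Markers of T cells and natural killer cells showed no common direction, with 1 rise and 1 fall among 9 and a median of 0.10. These counts lie near the 14.4% and 7.82% of probes with a gene name. *CTLA4*, the inhibitory receptor of regulatory and activated T cells, rose by 0.62 (SE 0.07), from 5.99 to 6.98 in untreated skin to 6.65 to 7.71, and was -0.75 (SE 0.82) with the slide as a fixed block. *CD4* fell by 0.90 (SE 0.12), with untreated values of 6.98 to 7.36 above all allergen values of 6.03 to 6.90. It fell by the same 0.90 at the saline site. *CD8A* differed by -0.44. The single measured B cell and plasma cell marker, *XBP1*, differed by 0.28, and of 3 granulocyte markers 1 rose, *S100A8*.

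Of 7 genes of the interferon response, 5 rose and 0 fell (median 0.72, saline 1.19), and 3 rose without dog 2716. *OAS1* and *OAS2*, sensors of double-stranded RNA, rose by 1.08 (SE 0.19) and 1.05 (SE 0.19), and *PSMB8*, a subunit of the immunoproteasome, by 0.72. *OAS1* was 5.98 to 6.73 in untreated skin and 6.90 to 8.46 at the allergen site, with no overlap. *MX1* rose by a mean of 0.79 and was higher in 4 of the 6 dogs. *CASP4*, an inflammatory caspase outside that list, rose by 1.23 (SE 0.15) from 7.06 to 8.28 to 8.49 to 9.20.

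Acute phase and inflammation genes gave 4 rises and 0 falls among 19, with a median of 0.42, and the median was 1.04 at the saline site and 1.35 in sensitized dogs. The number of rises was 9 without dog 2800 and 7 without dog 2802. *SELE*, the endothelial selectin that slows leukocytes, rose by 0.98, though its other probe differed by -0.22. *PTGS2*, the inducible cyclooxygenase, rose by 0.86 and *CD14*, the lipopolysaccharide coreceptor, by 0.85. *TNFAIP6*, which binds hyaluronan in inflamed matrix, rose by 0.79 (SE 0.12). *SERPINA3*, an acute phase protease inhibitor outside the list, rose by 1.24 (SE 0.22), from 5.19 to 6.08 in untreated skin to 6.44 to 7.58.

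In the matrix and wound repair list 6 of 16 genes rose and 0 fell (median 0.34, saline 0.55). *ADAMTS4*, a protease that cuts aggrecan and versican, rose by 1.16 (SE 0.26), and *VCAN*, versican itself, by 1.07 (SE 0.13). *MMP9*, a gelatinase of leukocytes, rose by 1.13 (SE 0.16) and *TIMP1*, its inhibitor, by 1.03 (SE 0.18). *TIMP1* was narrow in untreated skin, at 12.54 to 12.77, and wide at the allergen site, at 12.85 to 14.31. *PLAU*, urokinase, rose by 0.71 and was chosen for mention after their values were seen. *COL1A1* and *COL1A2*, the chains of type I collagen, differed by 0.22 and 0.09, and *DCN*, another product of fibroblasts, by -0.05.

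Of 12 genes of the cornified envelope 1 rose (0 without dog 2800) and 0 fell, with a median of 0.04, equal to that of all tested probes. The one was *KPRP*, a proline-rich protein of the outer epidermis, at 0.63 (SE 0.10). *LOR*, loricrin, and *ASPRV1*, the protease that processes filaggrin, differed by 0.40 and 0.42, and the brighter probe of *FLG2* by -0.41, none of them by 1.5-fold. The other probe of *FLG2* differed by 0.61, in the opposite direction and by more than 1.5-fold. Of 6 keratins 2 rose, with a median of 0.36: *KRT77*, of the upper epidermis and sweat ducts, by 0.66 (SE 0.10), and *KRT71*, of the inner root sheath of hair, by 1.03 (SE 0.16). *KRT71* spread from 6.83 to 9.20 in untreated skin and was -2.05 (SE 1.06) with the slide as a fixed block. *KRT1* and *KRT2* differed by 0.28 and 0.44.

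Neither the 10 genes of cell junctions (median -0.10) nor the 9 of epidermal and sebaceous lipids (median -0.01) held a called gene, and nor did the 6 keratinocyte markers (median 0.26) or the 8 melanocyte markers. Of the last, 4 were called lower without dog 2847, 2 without dog 2802 and 1 without dog 2716, 2800 or 2845. The melanocyte median was -0.52, beside -0.83 at the saline site and -0.54 in sensitized dogs. Of 4 hair follicle markers 2 fell, *SOX9* by 1.01 and *MSX2* by 0.97, both transcription factors of the follicle, beside the rise of *KRT71*. Of 13 oxidizing enzymes 1 rose and 2 fell, near the 6.04% and 12.1% of all probes, while 14.4% and 7.82% of probes with a gene name did. *HMOX1*, haem oxygenase, rose by 0.88 in 5 of 6 dogs, and no gene rose without dog 2716. *CYP1B1* and *ALDH3A1* differed by -1.14 and -0.62, though the other probe of *CYP1B1* differed by 0.26. The falls were 1 without dog 2800 or 2845 and 3 without dog 2847. Of 8 immediate early and stress genes 2 fell, *VEGFA* by 0.82 and *FOSB* by 0.72. Single falls were those of *VWF* (-0.80) among 2 endothelial markers, *PDGFRB* (-0.76) among 4 fibroblast markers, *LEP* (-0.70) among 6 adipocyte and muscle markers and *CA1* (-1.01), the one measured red blood cell marker. The second endothelial marker, *KDR*, differed by 0.21. *HSD11B1*, which regenerates cortisol, rose by 0.79 among 3 glucocorticoid and clock genes, and the 2 genes of cell division, *BIRC5* and *CCND1*, differed by 0.41 and -0.12.

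Reference genes did not stand still. Of 4 measured, *GUSB* rose by 0.81 (SE 0.09) and *HPRT1* by 0.62 (SE 0.07), both without overlap of the groups, while *ACTB* and *GAPDH* differed by 0.12 and -0.09. The saline site gave 0.81 and 0.80 for the former pair. With the slide as a fixed block *GUSB* was -0.85 and *HPRT1* 0.20.

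**Figure D3:**
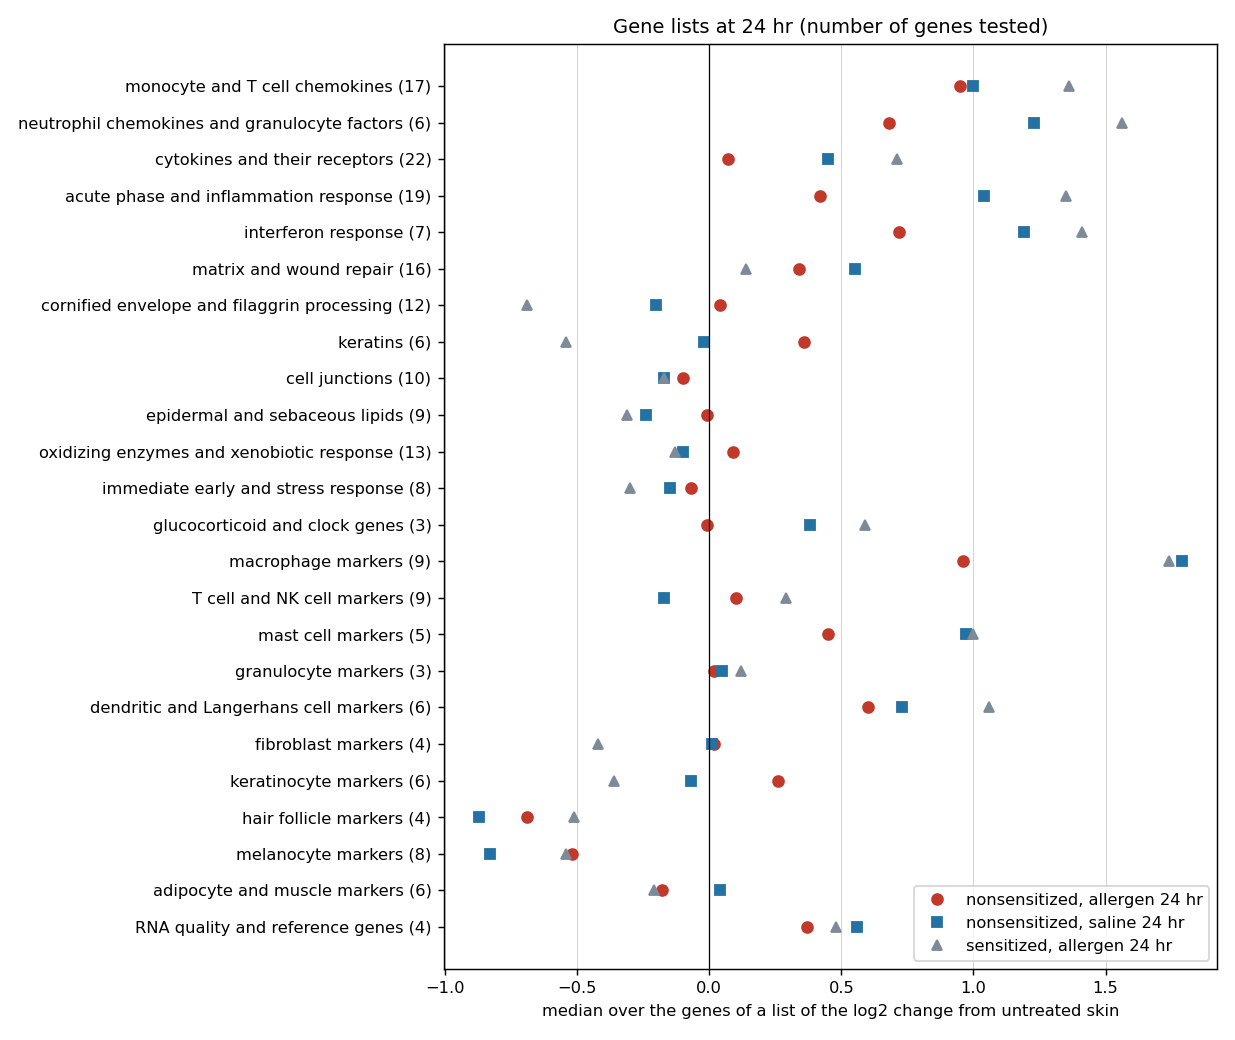
Median log2 change from untreated skin over the genes of each list with 3 or more measured genes, at the 24 hr allergen site (red) and saline site (blue) of nonsensitized dogs and at the 24 hr allergen site of sensitized dogs (grey). Macrophage markers lie at 0.96, 1.79 and 1.74, and genes of the cornified envelope at 0.04, -0.20 and -0.69.

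The 12 named genes that fell most came from no one gene family, and 11 of them differed between allergen and saline site by 0.02 to 0.22, with 0 called. They were *DRD2*, a dopamine receptor, *GNB1*, a G protein beta subunit, *GATD1*, *PODXL*, podocalyxin, *ITGA2B*, the platelet integrin chain, *OR2F1*, an olfactory receptor, *CELA1*, an elastase, *ADORA3*, an adenosine receptor, *ADAMTS5*, *CLDN3*, a claudin, *KDM5C*, a histone demethylase, and *VPS52*, a vesicle tether. Their falls ran from 1.27 to 1.92.

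*DRD2* was 9.86 to 10.65 in untreated skin (median 10.32), 7.61 to 9.57 at the allergen site (median 8.36) and 7.36 to 9.49 at the saline site (median 8.28). It fell by 1.92 (SE 0.25, adjusted p = 0.000339), and the sites differed by 0.13 (SE 0.17). *GNB1* was 13.98 to 14.55, 11.62 to 13.30 and 11.69 to 13.46, and fell by 1.84 (SE 0.19). Its 4 probes did not move alike, with differences of -2.05 to 0.39. Of the 12 genes 7 had several probes, and in 6 of these at least 1 probe had a positive difference, as *ADORA3* with -1.41 and 0.58. Over all named genes that were called, 21 of 93 with several probes had a probe of opposite sign. *OR2F1* and *VPS52*, which fell by 1.51 and 1.27, were 0.43 and 0.42 with the slide as a fixed block, and *CLDN3*, at -1.33, was 0.14.

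*ADAMTS5*, a protease for aggrecan and versican like ADAMTS4, was the one gene of the 12 that differed between the 2 sites. It was 10.37 to 10.83 in untreated skin (median 10.69) and 8.88 to 9.67 at the allergen site (median 9.23), and 10.18 to 11.44 at the saline site (median 10.67). All allergen values were below all others. The fall was 1.40 (SE 0.09, adjusted p = 7.48e-05), the saline site differed from untreated skin by 0.08 (adjusted p = 0.631), and the difference between allergen and saline was -1.48 (SE 0.14, adjusted p = 0.00747). That difference was -1.46 with the slide as a fixed block.

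**Figure D4:**
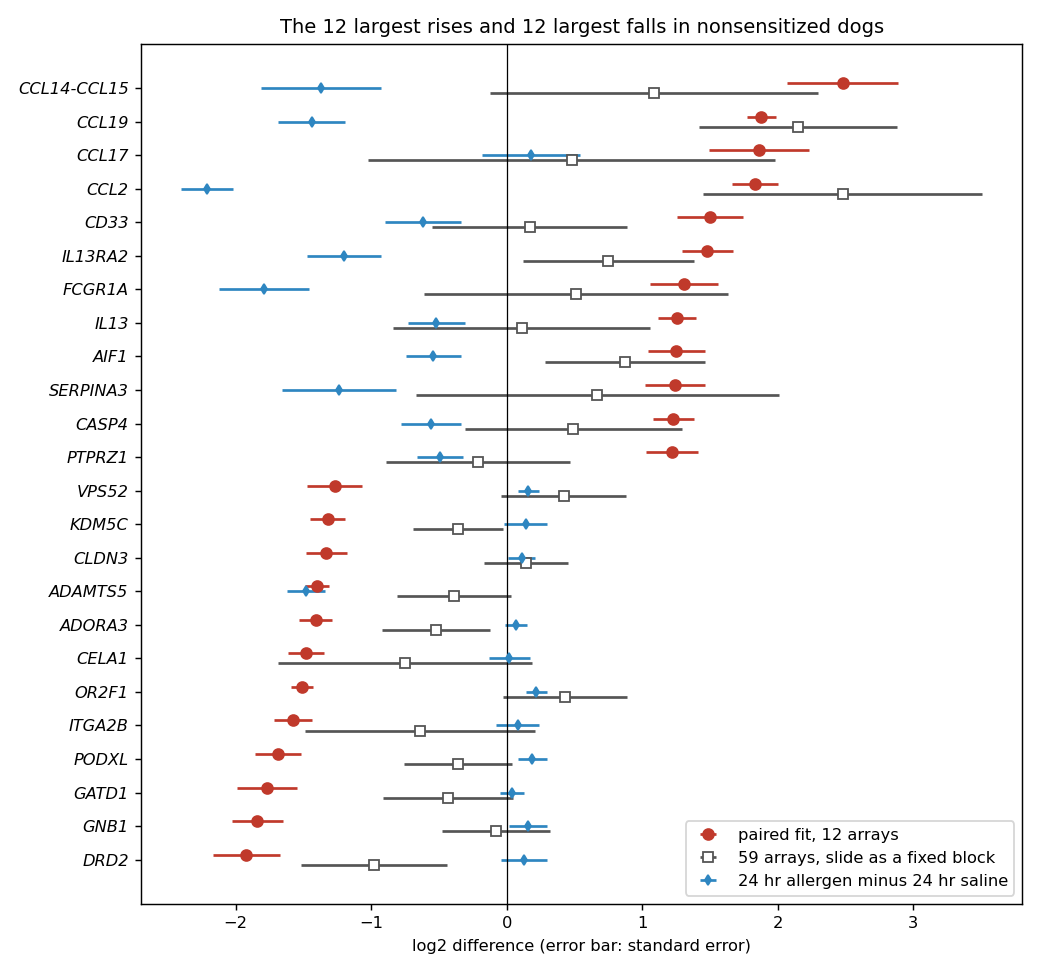
The 12 named genes with the largest rises and the 12 with the largest falls at the 24 hr allergen site of nonsensitized dogs (log2 difference, bars are 1 standard error). Red points show the paired difference from untreated skin, open squares the same with the slide as a fixed block in 59 arrays, and blue diamonds the difference from the saline site. Blue diamonds lie near 0 for the falls except *ADAMTS5* (-1.48), and the rise of *CCL2* (1.83) goes with -2.21 against saline.

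Allergen and saline sites of the same dogs could be compared on shared slides, at the same hour and under the same bandage. The signals do not tell which site of a dog received the paste, so the direction of each of these differences rests on the sample labels alone. The comparison asks which genes differed between a site under 75 mg of mite paste and a site under 50 µl of saline. No site received a paste without mite, so the mite cannot be told apart from other properties of the paste. Here 134 probes (0.302%) were higher and 367 (0.827%) lower at the allergen site. The counts hung on single dogs. They were 73 and 220 without dog 2704, 23 and 75 without dog 2800, 37 and 89 without dog 2802, 89 and 162 without dog 2845, 26 and 74 without dog 2847 and 142 and 400 without dog 2716. The lower probes were mostly ones that were higher at the saline site than in untreated skin. The saline site was called higher than untreated skin for 343 of the 367, with a median of 1.23 there and of 0.44 at the allergen site. The saline site was called lower than untreated skin for 88 of the 134, with medians of -0.71 and 0.05. Of the probes that had risen at the allergen site, 115 were lower and 14 higher than at the saline site. Both sets of medians use arrays that chose the probes and are given as a description.

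Calls in several immune lists went the same way. Of 22 cytokines and receptors 7 were lower and 0 higher relative to saline (0.827% and 0.302% of all probes), of 19 acute phase genes 7 and 0, of 16 matrix genes 5 and 0, of 17 chemokines 4 and 0, and of 9 macrophage markers 2 and 0. The 7 interferon genes and the 9 markers of T cells and natural killer cells held 0 calls. The medians of the first 5 lists named here were -0.11, -0.66, -0.27, -0.49 and -0.62, against 0.01 over all tested probes. Lower calls were also held by the mast cell markers (2 of 5) and the immediate early and stress genes (2 of 8). The neutrophil factors, the dendritic cell markers and the oxidizing enzymes held 1 each. No list had more than 1 gene higher at the allergen site. Of the lower genes, 3 of 7 cytokines and receptors, 6 of 7 acute phase genes, 3 of 5 matrix genes, 1 of 4 chemokines and 1 of 2 macrophage markers were named through the list that the study chose on a 24 hr contrast that includes these allergen and saline arrays, so these counts are not independent evidence of the direction.

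*PTX3*, a pattern recognition protein made within hours of tissue damage, differed most among the genes looked at and was chosen after its values were seen. It was 5.01 to 5.77 in untreated skin (median 5.40), 5.34 to 6.78 at the allergen site (median 5.74) and 9.78 to 11.55 at the saline site (median 10.62). Every saline value lay above every other value. The saline site was 5.31 above untreated skin, while the allergen site differed by 0.55 and did not reach 1.5-fold. The difference between the sites was -4.76 (SE 0.35, adjusted p = 0.0058, limma), and -4.74 with the slide as a fixed block. Sensitized dogs had 8.29 to 9.93 at their allergen sites.

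*TNFAIP6* was 7.71 to 8.91 at the allergen site and 9.69 to 12.41 at the saline site, with a difference of -2.54 (SE 0.22, adjusted p = 0.0066). For *CCL2* the difference was -2.21 (SE 0.19, adjusted p = 0.0066) and for *CCL8* -2.20 (SE 0.22, adjusted p = 0.00799). *ADAMTS4* was 8.95 to 11.12 at the allergen site and 11.82 to 14.17 at the saline site, a difference of -2.98 (SE 0.28). These 4 genes had no overlap between the sites. *CDA*, cytidine deaminase, and *FCGR1A* were lower by -1.95 (SE 0.26) and -1.79 (SE 0.33), and with the slide as a fixed block these 6 genes stayed called, at -3.04 to -1.73. Leaving out a dog ended the call of *CDA* (dog 2847, adjusted p = 0.0554) and of *FCGR1A* (dogs 2704, 2800, 2802 and 2847, highest adjusted p = 0.0985).

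Several genes that did not reach 1.5-fold at the allergen site were raised at the saline site. Chosen after their values were seen, *SOCS3*, an inhibitor of cytokine signals, differed from untreated skin by -0.08 at the allergen and by 1.27 at the saline site. *OSMR*, the oncostatin M receptor, gave -0.10 and 0.82, *ICAM1*, the adhesion molecule for leukocytes, 0.44 and 1.59, *CHI3L1*, a chitinase-like protein, 0.54 and 1.88, *ADAMTS1* 0.40 and 1.68, and *MT2A*, a metallothionein, -0.33 and 1.22. The dimmer probes of *SOCS3* and *OSMR* differed from untreated skin by -0.64 and 0.53 at the allergen site. *ADAMTS1* and *CHI3L1* were higher at the allergen site than in untreated skin in 6 of 6 dogs (adjusted p = 0.00249 and 0.00221). The allergen site was called lower than saline for all 6, with adjusted p of 0.00606 to 0.0326. *IL33*, which rose at both sites, was -1.78 (SE 0.15, adjusted p = 0.00606) at the allergen site relative to saline.

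Few named genes were higher at the allergen site. *BEX1*, a small adaptor protein known from neurons, was 7.53 to 8.25 in untreated skin (median 8.01), 7.94 to 9.02 at the allergen site (median 8.73) and 7.34 to 7.94 at the saline site (median 7.71). It was higher at the allergen site than at either other site in 6 of 6 dogs, by 0.67 (SE 0.08) from untreated skin and by 0.93 (SE 0.11, adjusted p = 0.0145) from saline. *NAP1L2*, a nucleosome assembly protein, and *SULT1B1*, a sulfotransferase, had a like pattern, with differences from saline of 0.71 (SE 0.15) and 0.71 (SE 0.13). *SULT1B1* was above background on 3 of 6 untreated arrays and entered the test through its allergen arrays alone. With the slide as a fixed block these 3 differences were 0.94, 0.68 and 0.69 and were not called. Without dog 2800 or 2847 that of *BEX1* was not called (adjusted p = 0.0519 and 0.0554), and those of *NAP1L2* and *SULT1B1* were not called whichever of the 6 dogs was left out. *FMO2*, a monooxygenase, and *CD36*, a fatty acid transporter, were higher than at the saline site by 0.91 and 0.71, with saline values below untreated skin (-0.48 and -0.89). They differed from untreated skin at the allergen site by 0.43 and -0.18, short of 1.5-fold. The call of *FMO2* was lost without dog 2800, 2802, 2845 or 2847 (highest adjusted p = 0.116).

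The last comparison asked where the change from untreated to allergen-treated skin differed between sensitized and nonsensitized dogs. The groups also differed in the share of males and in earlier mite treatment, and the part of each was not tested. Of the 44372 probes, 781 (1.76%) changed more upward and 1176 (2.65%) more downward in the 5 sensitized dogs. These counts fell to 9 and 4 with the slide as a fixed block, a fit that left out the pairing by dog. The same unpaired fit without the slide gave 305 and 531. Of 15 called genes followed through the fits, 5 kept the call in the unpaired fit without the slide and 0 with it. In the test on differences within dogs, the counts were 2000 and 1898 without dog 2841, a sensitized animal. Without dog 2855, another sensitized animal, they were 452 and 765. Of nonsensitized dogs, leaving out 2802 gave 1266 and 1628, 2845 gave 519 and 748, and 2716 gave 551 and 766.

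*S100A8* rose by a mean of 1.75 in nonsensitized dogs and changed by 3.36 to 6.06 in each sensitized dog, a difference of 2.96 (SE 0.52, adjusted p = 0.00778, limma). *SERPINA3* changed by 0.52 to 2.39 in nonsensitized and by 3.49 to 4.66 in sensitized dogs, a difference of 2.77 (SE 0.32, adjusted p = 0.00118). *TNFAIP6* changed by 0.37 to 1.36 against 2.36 to 4.54, a difference of 2.63 (SE 0.31). The dogs of the 2 groups did not overlap for any of these 3 genes. *SDSL*, a serine dehydratase-like enzyme, *CCL20*, which attracts CCR6-bearing cells, and *CCL8* differed by 2.78, 2.34 and 1.99 in the same direction. With the slide as a fixed block these 6 differences were 1.68 to 3.57 and were not called.

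Of the 12 largest rises in nonsensitized dogs, *CCL19* (1.22), *CCL2* (1.39), *IL13RA2* (1.33), *FCGR1A* (1.77), *SERPINA3*, *CASP4* (1.47) and *PTPRZ1*, a receptor phosphatase (1.28), rose more in sensitized dogs. For *IL13*, *CCL17*, *CCL14-CCL15*, *CD33* and *AIF1* the difference was 1.12, 1.90, 1.10, 1.05 and 0.51 and did not pass the threshold. *ADAMTS5*, which fell by 1.16 or more in each nonsensitized dog, changed by -0.70 to 1.07 in sensitized dogs, a difference of 1.33 (SE 0.29, adjusted p = 0.0176). That difference was 0.75 with the slide as a fixed block (adjusted p = 0.2), and those of *CCL19* and *CCL2* were 1.14 and 1.63 (adjusted p = 0.271 and 0.262), so that none of the 3 was called. *CCL2* also lost the call without dog 2716, 2853 or 2855 (highest adjusted p = 0.0637).

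Genes of the epidermis stood the other way. Of 12 genes of the cornified envelope 7 and of 6 keratins 4 changed more downward in sensitized dogs, against 2.65% of all probes. The medians of the difference were -0.80 and -0.76. With the slide as a fixed block 4 of all tested probes were called more downward. The names of 8 of those 12 and 3 of those 6 genes came from the list that the study chose for a difference between the groups at 24 hr. Among them were all 7 called genes of the cornified envelope and every called keratin but *KRT2*. The cornified envelope genes named through RefSeq, *TGM1*, *SPINK5*, *KLK5* and *KRTDAP*, were not called. These counts are thus not independent evidence of the direction. *KRT77* was higher by 0.15 to 0.93 in the 6 nonsensitized dogs and lower by 0.17 to 1.79 in the 5 sensitized dogs, a difference of -1.49 (SE 0.25, adjusted p = 0.00636). *KPRP* was higher by 0.33 to 1.00 and lower by 0.44 to 1.28, a difference of -1.45 (SE 0.17, adjusted p = 0.0013). For *LOR* the difference was -1.48 and for *ASPRV1* -1.21. *BEX1*, with -1.52 (SE 0.20), and *NAP1L2*, with -1.06 (SE 0.20), were again among these genes. The differences of *KRT77* (-1.53), *KPRP* (-1.37), *BEX1* (-1.39) and *NAP1L2* (-0.85) with the slide as a fixed block were not called (adjusted p = 0.117, 0.158, 0.172 and 0.282). *CA3*, carbonic anhydrase 3, differed by -1.22 and *CTSA*, cathepsin A, by -0.59, and each call was lost in 9 of the 11 fits that left out 1 dog. In the fit with the slide as a fixed block *CA3* was -1.76 (adjusted p = 0.122) and *CTSA* -0.06 (adjusted p = 0.915), and the change of *CA3* in nonsensitized dogs turned to 1.76.

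**Figure D5:**
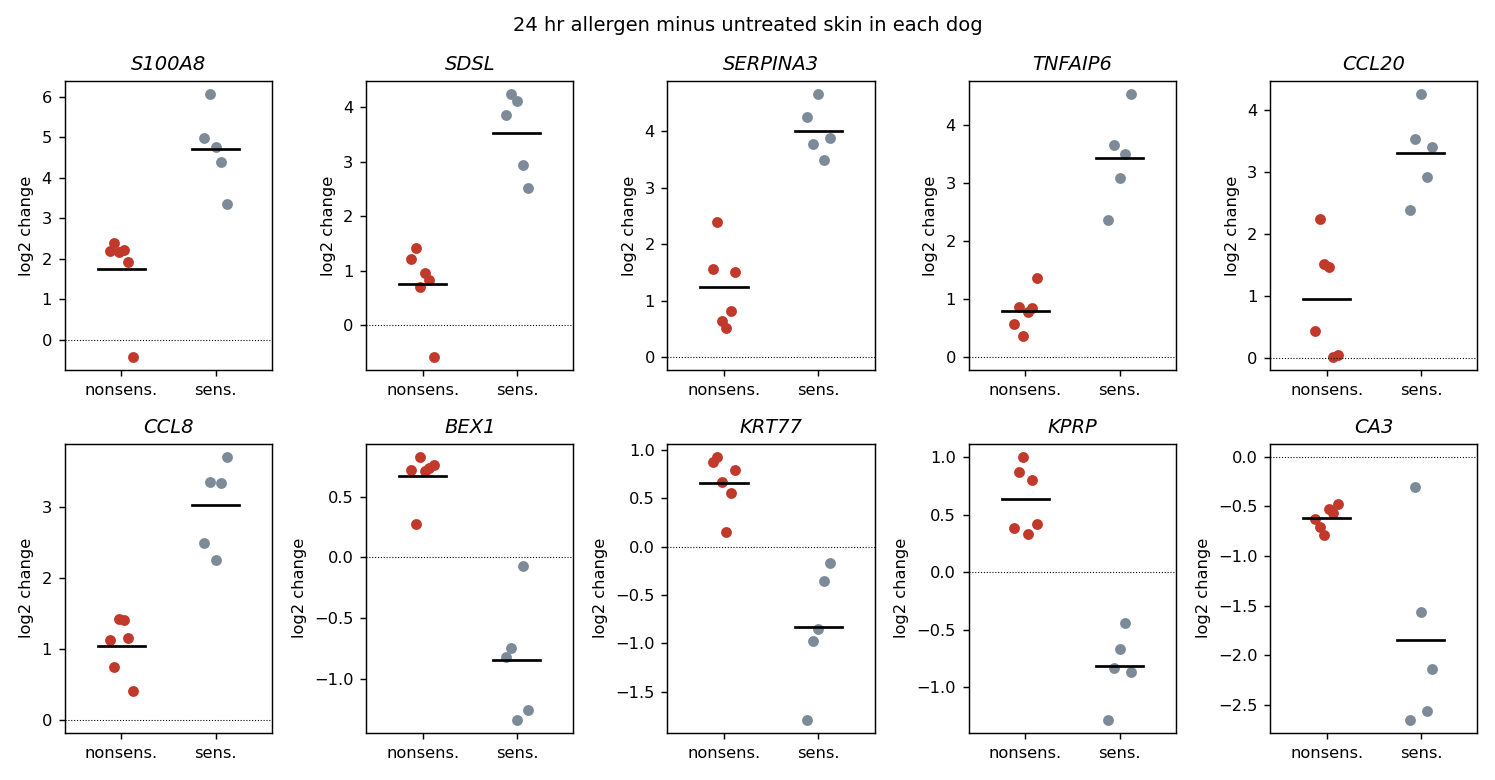
Change from untreated skin to the 24 hr allergen site in each dog (log2 scale), for 6 nonsensitized (red) and 5 sensitized dogs (grey), with bars at the means, for 10 of the genes in which the groups differed. *S100A8*, *SERPINA3* and *TNFAIP6* have every sensitized dog above every nonsensitized dog, and *BEX1*, *KRT77* and *KPRP* have all nonsensitized dogs above 0 and all sensitized dogs below it.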

How the data were processed

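Per the labels, Agilent canine arrays were hybridised with RNA of single biopsies, and the authors extracted the signals with Agilent Feature Extraction 10.7.3.1. The deposited intensity values are processed signals after background subtraction and without scaling between arrays (the file of 1 untreated array holds whole numbers and no header). Control spots and outlier flags were left out. The study used vsn and limma, and its variance stabilization was reimplemented here (90% of spots kept in the fit), which compresses differences of dim probes. Of the non-control spots, 73.9% were tested, those well above background on at least 5 of 6 arrays of either group. Spots of a probe were averaged. Named genes were read from the probe with the highest mean.

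Differences were tested with limma 3.58.1 in R 4.3.3, with the dog as a fixed block. The fits over 59 arrays with the slide or the scan day as a fixed block left the dog out. Pairing came from the animal numbers in the labels: deviations of untreated and allergen arrays of the same dog correlated with r of 0.382 to 0.655, against medians of -0.145 to -0.034 with other dogs. Benjamini-Hochberg adjustment ran over all 44372 probes. Sensitized and nonsensitized dogs were compared on the differences within dogs. The sensitized dog whose array the study excluded entered only an alternative. In simulated data, 99% of 200 changed probes of 2-fold and 100% of those of 4-fold were recovered with 4 false calls among 45189 spots. The simulation had no slide or scan day effect.

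Of 54633 identifiers, 1072 were named through RefSeq (assembly UU_Cfam_GSD_1.0) and 494 through identity columns of a study list chosen on the 24 hr difference between the groups. No value of that list was used. Named genes were the 12 largest rises and 12 largest falls changed in 6 of 6 dogs, up to 4 of each gene list, and up to 6 in each direction that also differed from saline or between the groups (118 genes), and 22 more were chosen after their values were seen. One gene of the lists, though counted in its list, is not reported here. The comparison, its gene lists and tests were chosen with earlier results of these data known. Scaling, background, filter, block, slide, scan day, threshold and each dog were varied. The number of arrays limits the precision.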

Additional observations from a re-analysis of the deposited data

Results flagged for a closer look

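Among 140 named genes checked for a dog far from the other 5 in its difference between 24 hr allergen and untreated skin, 11 had one, and chance alone marks about 1 gene in 20. In dog 2802, the one dog on slide 3 and scanned on another day, *GATD1* was -0.35 (others -2.18 to -1.84), *VPS52* -0.07 (others -1.86 to -1.24), *CA1* -0.58 (others -1.17 to -0.98) and *CTSA* 0.27 (others 0.60 to 0.76). In dog 2847, whose untreated array was the one on slide 8, *S100A8* was -0.42 (others 1.92 to 2.40), *SDSL* -0.59 (others 0.70 to 1.41), *GAPDH* -0.92 and the muscle genes *DES* and *MYH1* -2.07 and -0.85. In dog 2716 *BEX1* was 0.28 (others 0.71 to 0.83), and in dog 2800 *MMP9* was 0.18 (others 0.96 to 1.42). The part of the slide in these values was not tested.

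Counted here were only genes named for a largest rise or fall, or for a difference between sensitized and nonsensitized dogs. For 19 of these the difference between 24 hr allergen and untreated skin differed between the groups by the limma test of the difference itself. Other named genes were also called but not counted, among them *PTX3* (3.16), *SELE* (1.99), *FMO2* (-1.74) and *LOR* (-1.48). Of the 19, the rise was larger in sensitized dogs for *S100A8* by 2.96, *SDSL* by 2.78, *SERPINA3* by 2.77, *TNFAIP6* by 2.63, *CCL20* by 2.34, *CCL8* by 1.99, *FCGR1A* by 1.77, *CASP4* by 1.47, *CCL2* by 1.39, *IL13RA2* by 1.33, *PTPRZ1* by 1.28 and *CCL19* by 1.22. For *ADAMTS5*, which fell in nonsensitized dogs, the change was higher in sensitized dogs by 1.33. The change was lower in sensitized dogs, on the log2 scale, for *BEX1* (-1.52), *KRT77* (-1.49), *KPRP* (-1.45), *CA3* (-1.22), *NAP1L2* (-1.06) and *CTSA* (-0.59).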

How the results depend on the processing

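For the difference from untreated skin, counts of probes higher and lower were within 1.5 times of 2680 and 5378 with all outlier spots, each spot apart, probes above background on all arrays, either joint fit without the slide, and the slide as a random block. The fit without the replicate block, which ignores the pairing by dog, gave 2521 and 5078. Higher counts became 4514 with quantile normalization, 18604 without scaling, 1353 with normexp, 4286 without the filter, 13447 without a fold limit and 210 when testing against 1.5-fold, and lower counts 8637 with 75th percentile scaling, 3425 without scaling, 3407 with normexp, 12083 without a fold limit and 1397 against 1.5-fold. With the slide fixed they were 660 and 310. With the scan day, chosen after seeing the data, they were 5 and 1 as a fixed block and 0 and 0 as a random block, while 27769 probes had an unadjusted p under 0.05 in the paired fit. Leaving out each dog gave 2382 to 3427 and 5174 to 5905. Without scaling the median of all probes was 0.50 and 84.5% of calls were higher, against 33.3% (24.7% with the 75th percentile, 40.2% with quantile normalization).

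Against saline, counts higher were 236 with the 75th percentile, 31 without the replicate block, which leaves the pairing out, 49 in the unpaired joint fit, 69 with the slide fixed, 61 with the scan day fixed, 690 without a fold limit and 0 against 1.5-fold (9649 probes of either direction had an unadjusted p under 0.05). Counts lower were 599 without scaling, 154 without the block, 1145 without a fold limit and 1 against 1.5-fold. Leaving out each dog gave 23 to 142 (23 without dog 2800) and 74 to 400 (74 without dog 2847). The share of calls higher was 26.7%, and 45% with the 75th percentile and 15.6% without scaling. Between the groups of dogs, counts higher in sensitized dogs were 226 without scaling, 519 with normexp, 305 unpaired, 9 with the slide, 73 with the scan day, 1277 without a fold limit and 12 against 1.5-fold, and counts lower 531 unpaired, 4, 45, 1833 and 2. Leaving out each dog gave 452 to 2000 and 748 to 1898, and including the sensitized dog that the study excluded gave 551 and 958.

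Differences from untreated skin that reversed with the slide fixed were those of *CA3* (1.76), *CCL25* (0.32), *CCL4* (-0.09), *CCL5* (-0.45), *CD163* (-0.17), *CD80* (-0.02), *CLDN3* (0.14), *CTLA4* (-0.75), *CTSA* (-0.38), *DLA-DQA1* (-0.20), *GUSB* (-0.85), *IL1RN* (-0.35), *KRT71* (-2.05), *OR2F1* (0.43), *PDGFRB* (0.22), *PLAU* (-0.64), *PTPRZ1* (-0.21), *SULT1B1* (-0.89) and *VPS52* (0.42). With the scan day fixed they were *CD4* (0.10), *CXCL8* (-0.02), *FOSB* (0.12), *GNB1* (0.19), *KDM5C* (0.20), *PDGFRB* (0.20) and *VWF* (0.01). The cause was not tested. Of the 90 named genes called, 77 kept the call with the slide as a random block and 79 to 87 when a dog was left out. Probes near background give only bounds.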
